A study of Mus musculus with 4 samples.

Results

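The integrin and laminin chains were all genes whose symbol in the feature table matched the names of the integrin alpha chains, the integrin beta chains, or the laminin alpha, beta and gamma chains. This gave 37 of 32289 features, 26 integrin and 11 laminin chains. Members were taken by name and not by any measured value, but the family was chosen with earlier results of these data known. The chains were measured by single-cell RNA sequencing in 4 libraries from mouse lung tumours.

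Integrins are cell-surface receptors built from an alpha and a beta chain, and the pair decides which ligand is bound: collagens, laminins, proteins with an RGD motif such as fibronectin and the latent form of TGF-beta, or partners on other cells. Laminins are secreted trimers of an alpha, a beta and a gamma chain that form the sheet-like core of the basement membrane. In the lung, alveolar epithelium and capillary endothelium share a thin basement membrane, and leukocytes use their own integrins to leave vessels and to stay in tissue.

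All 4 groups came from mice with frt-flanked p53, CreERT2 at the Rosa locus behind an frt-flanked stop, and floxed Hnf4a, so the vehicle animals carried these alleles too. Tumours were started through the airway with adenovirus expressing FlpO recombinase under the mouse SPC promoter, which is active in alveolar type 2 cells. Tamoxifen or its vehicle was injected 10 weeks later, and lung tumours were taken 2 weeks after that. For each treatment 1 library was made from the suspension before depletion and 1 from the remainder after magnetic removal of CD45+ and CD31+ cells (leukocytes and endothelium). Cells were frozen, thawed and sorted as live before loading. How many mice or tumours went into each portion cannot be read from the labels. The before and after libraries are portions of the same suspensions and do not replicate each other, so each group has 1 library, no test between treatments was possible, and intervals cover counting error only.

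From 6111 to 7358 cells per library were kept, with 89336614 to 140673455 unique molecular identifiers (UMIs, counted transcript molecules) per library and medians of 9302 to 17733 UMIs per cell. Epithelial-like cells made up 13.6% of kept cells before depletion and 92.7% after in the vehicle, and 16.3% and 95.8% in the libraries labelled tamoxifen. After depletion 0 B cell-like, T cell-like or NK cell-like cells were left, but endothelial-like cells remained. These numbered 158 before and 166 after depletion in the vehicle, and 154 and 123 in the libraries labelled tamoxifen. Libraries shared 10 to 18 cell barcodes in each pair. Hnf4a RNA in epithelial-like cells was 53.2, 55.1, 86.5 and 83.1 CPM in the vehicle before, vehicle after, tamoxifen before and tamoxifen after libraries, so it was higher under the label meant to delete it. A 3′ tag can be read from a transcript that lacks the floxed part, so this value does not check the label, and the libraries are called "labelled tamoxifen" for that reason. Levels are CPM, the UMIs of a gene per 1000000 UMIs of the same cells, and sets of 4 values below always follow the order just given. Recovery by 3′ priming differs between genes, so levels were compared between cell classes for 1 chain at a time, never between chains.

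Cells were clustered with the 37 chains left out of the clustering genes, and clusters were named from fixed markers only as "-like". Epithelial-like cells (15428) carried Epcam at 649 to 795 CPM, endothelial-like cells carried Pecam1 at 922 to 1069 CPM, and fibroblast-like cells carried Col1a1 at 2695 to 3559 CPM. Before depletion Epcam was also 425 and 233 CPM in monocytes, macrophages and dendritic cells together, vehicle first. In alveolar macrophage-like cells it was 205 and 228 CPM. Of the epithelial clusters with at least 50 cells in a library, 4 lay mostly in 1 treatment. The Magi2-led cluster had 44 and 308 of its 364 cells in the vehicle libraries and the Rbp4 Agr2 Phgr1 high cluster 126 and 1243 of 1519. The Dlk1 Bpifa1 high cluster had 212 and 1642 of 1878 in the libraries labelled tamoxifen, and the Plppr1-led cluster 59 and 321 of 403 there. Each was found before and after depletion, but each treatment rests on its own suspensions, so treatment and suspension cannot be told apart. The order of classes is given only among those with at least 50 cells in a library.

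Of the 37 chains, 34 reached 10 CPM in at least 1 class of 50 or more cells before depletion. The other 3 stayed below it there and had their highest values in fibroblast-like cells: the collagen-receptor chains Itga10 (at most 3.70 CPM) and Itga11 (at most 9.51 CPM), and the laminin gamma chain Lamc3 (at most 8.45 CPM). Epithelial-like cells held 17 chains at 10 CPM or more in every library, 11 integrins and 6 laminins. Endothelial-like cells held 17 (10 and 7), fibroblast-like cells 15 (9 and 6), and monocytes, macrophages and dendritic cells together 15 (13 and 2). T cell-like cells held 13 and NK cell-like cells 14, each with 2 laminins among them. B cell-like and neutrophil-like cells held 11 each, plasmacytoid dendritic cell-like cells 10, and alveolar macrophage-like cells 9 with no laminin. Sftpc, an alveolar type 2 marker, was 62153 to 68595 CPM in epithelial-like, 1398 to 5717 CPM in endothelial-like and 152 to 1151 CPM in fibroblast-like cells. Before depletion, vehicle first, it was 4359 and 4479 CPM in B cell-like and 1028 and 7580 CPM in plasmacytoid dendritic cell-like cells. The part of epithelial RNA in the chain counts of other classes was not tested.

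**Figure D1:**
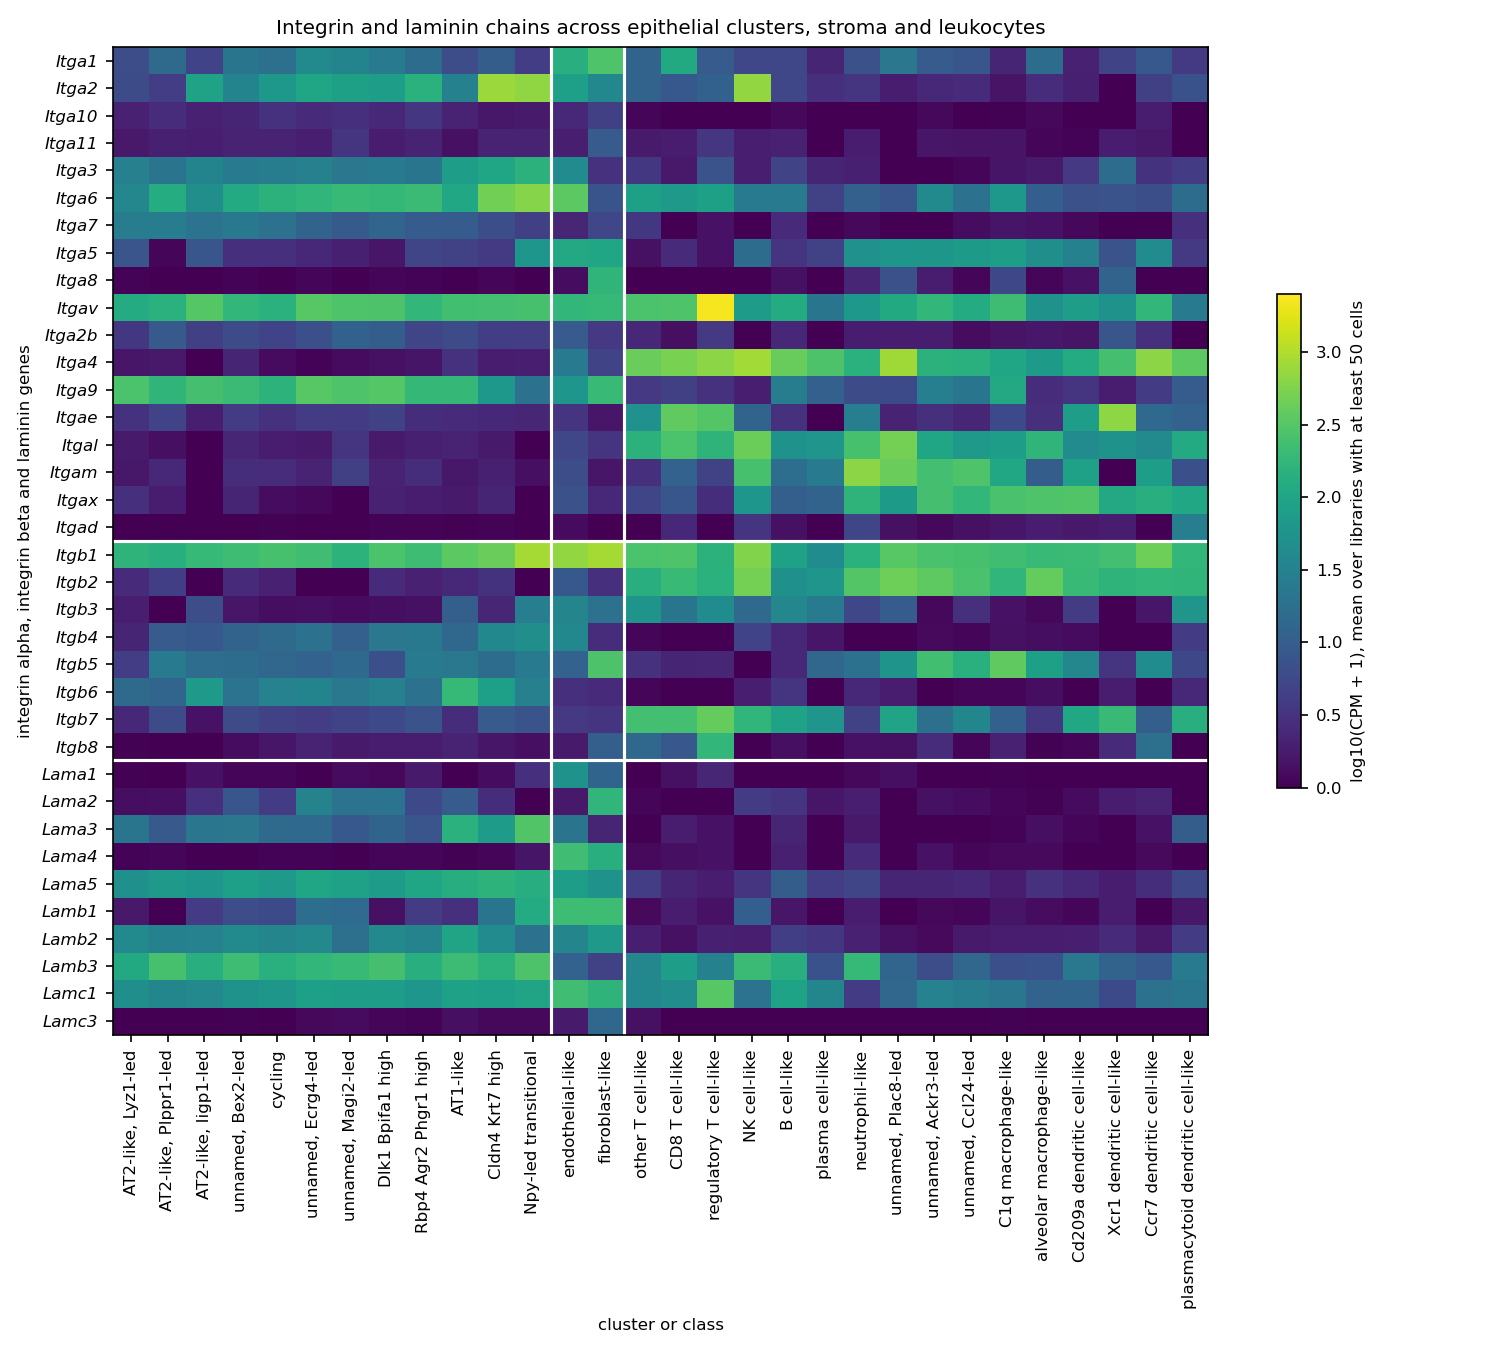
Heat map of log10(CPM + 1) for 36 chains (rows; integrin alpha, integrin beta and laminin blocks divided by white lines) in epithelial clusters, stroma and leukocytes (columns), as the mean over libraries with at least 50 cells. Itgav stands out in regulatory T cell-like cells, Itga2 in the Cldn4 Krt7 high and Npy-led clusters and in NK cell-like cells, and laminin alpha chains in epithelium and stroma.

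Among receptors for collagen and laminin, Itga2, Itga6, Itgb4 and Itga3 were high in the same pair of epithelial clusters, the Cldn4 Krt7 high and the Npy-led cluster. Itga2, the alpha chain of a collagen and laminin receptor, was 902, 740, 816 and 587 CPM in the Cldn4 Krt7 high cluster. This cluster had all 8 fixed markers of a transitional state in at least 10% of its cells, but none of them was among its 10 leading genes, which included Pyy, Mcpt1 and 1 gastrointestinal marker, Tff1, so its name gives its genes and no cell type. In the Npy-led cluster, which had the same 8 markers and likewise none among its leading genes, sampled with enough cells only after depletion, it was 798 CPM in the vehicle and 549 CPM with tamoxifen. The alveolar type 2-like cluster called Lyz1-led had 2.82, 9.14, 5.62 and 3.18 CPM, far below both. Lyz1 was among the leading genes of this cluster, but the top one was Scgb1a1, a fixed marker of club cells. Intermediate levels stood in the Rbp4 Agr2 Phgr1 high cluster, with gastrointestinal markers, where Itga2 was 99.4 and 127 CPM in the vehicle and 211 CPM in the tamoxifen library after depletion. No library of the Lyz1-led or alveolar type 1-like clusters overlapped the range of the Cldn4 Krt7 high cluster.

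Itga6, the alpha chain of the main laminin receptors, was 508, 410, 530 and 452 CPM in the Cldn4 Krt7 high cluster and 641 and 564 CPM in the Npy-led cluster after depletion. It was 38.7, 33.9, 38.0 and 37.0 CPM in the Lyz1-led alveolar type 2-like cluster. Its partner Itgb4, the long-tailed chain that anchors hemidesmosomes to keratins, was 36.0, 24.7, 48.1 and 40.5 CPM in the Cldn4 Krt7 high cluster and 0.470, 1.39, 1.97 and 1.18 CPM in the Lyz1-led cluster. Over the 12 epithelial clusters of sufficient size Itga6 and Itgb4 had Pearson's r = 0.91 and Spearman's rho = 0.85, a description over clusters that share libraries and differ in depth. Endothelial-like cells also carried both, Itga6 at 394, 299, 380 and 306 CPM and Itgb4 at 32.3, 36.7, 44.3 and 36.8 CPM. Fibroblast-like cells had Itgb4 at 0.924 to 3.39 CPM. The genes Gm13663 and Gm13662 lie over Itga6 on the same strand, and their part in the Itga6 counts was not tested.

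Itga3, a laminin receptor chain that pairs with Itgb1, was 106, 73.9, 134 and 87.6 CPM in the Cldn4 Krt7 high cluster and 95.5, 63.0, 94.0 and 59.1 CPM in alveolar type 1-like cells, with overlapping ranges. In the Lyz1-led cluster it was 28.0 to 33.9 CPM. Itgb1, the beta chain shared by most matrix receptors, was found in every class. Among classes with at least 50 cells in a library it was highest in fibroblast-like cells (838, 931, 788 and 943 CPM), in endothelial-like cells (761, 693, 722 and 656 CPM) and, in the epithelium, in the Npy-led cluster (1017 and 746 CPM after depletion), whose range overlapped both. The Lyz1-led cluster had 180, 160, 163 and 148 CPM.

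A pair of alpha chains ran the other way along the epithelium. Itga9, which binds tenascin and related ligands with Itgb1, was 321, 254, 272 and 255 CPM in the Lyz1-led cluster and 321 and 322 CPM in the Dlk1 Bpifa1 high cluster with tamoxifen. The Ecrg4-led cluster had 251 and 395 CPM of Itga9 after depletion. In the Cldn4 Krt7 high cluster it was 62.8, 56.9, 65.3 and 73.9 CPM, and in the Npy-led cluster 11.2 and 24.5 CPM. Itga7, a laminin receptor chain known from muscle, was low throughout, at 30.1, 25.0, 26.2 and 23.5 CPM in the Lyz1-led cluster and 3.27, 5.15, 5.80 and 7.86 CPM in the Cldn4 Krt7 high cluster. Over the 12 clusters Itga9 and Itgb1 had r = -0.84 and rho = -0.41, and Itga7 and Itgb1 r = -0.79 and rho = -0.65. The Npy-led cluster held the lowest Itga9 and the highest Itgb1 of the 12.

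Itga1, a collagen receptor chain, was mainly stromal, at 360, 296, 263 and 236 CPM in fibroblast-like and 160, 114, 150 and 126 CPM in endothelial-like cells. Among leukocyte classes with at least 50 cells in a library it was highest in CD8 T cell-like cells, at 96.2 CPM in the vehicle and 137 CPM with tamoxifen before depletion, against 9.42 and 12.8 CPM in the remaining T cell-like cells. A Gzmc-led cluster of 58 cells, too small in each library to be compared, had Itga1 among its leading genes. The gene Pelo lies inside Itga1 on the same strand and had 19.5 and 25.5 CPM in CD8 T cell-like cells. Itga2 was also a leukocyte chain: NK cell-like cells, for which it is a known surface marker in mice, had 838 and 591 CPM, and other leukocyte classes had at most 12.6 CPM.

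The RGD-binding chains divided the tissue differently. Itgav, the common alpha chain of this family, was 101 to 351 CPM in every epithelial cluster and 130 to 230 CPM in stroma. Its beta partners were more selective. Itgb6, which with Itgav activates latent TGF-beta on epithelium, was 164, 176, 232 and 177 CPM in alveolar type 1-like cells and 91.8, 67.9, 89.9 and 82.6 CPM in the Cldn4 Krt7 high cluster. The Lyz1-led cluster had 15.2, 13.5, 11.5 and 15.9 CPM. The 3 ranges did not overlap, and endothelial-like and fibroblast-like cells had 0.847 to 3.11 CPM of Itgb6.

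Itgb5, another Itgav partner, was a chain of fibroblast-like cells (272, 245, 333 and 285 CPM) and of C1q macrophage-like cells (358 CPM in the vehicle and 373 CPM with tamoxifen before depletion). In the epithelium it was 42.1, 19.4, 20.3 and 7.17 CPM in alveolar type 1-like cells and 2.19 to 4.52 CPM in the Lyz1-led cluster. Itga8, an RGD receptor chain of mesenchymal cells, was 240, 89.0, 227 and 113 CPM in fibroblast-like cells and at most 1.11 CPM in endothelial-like cells. In both treatments Itga8 was higher in the portion taken before depletion. The fibroblast-like class joined several clusters in a mix that differed between libraries. The cluster led by Mfap4 and Inmt gave 54 of 80, 28 of 88, 32 of 52 and 29 of 63 fibroblast-like cells. The part of this mix in the levels of fibroblast-like cells was not tested. Itga5, the fibronectin receptor chain, was 143, 87.1, 110 and 101 CPM in endothelial-like and 77.1, 99.1, 75.8 and 141 CPM in fibroblast-like cells, which overlapped. Epithelial clusters had at most 12.02 CPM of Itga5 except the Npy-led cluster, with 86.3 and 32.8 CPM after depletion. Itgb3, which pairs with Itgav or with the platelet chain Itga2b, was 47.4, 17.4, 46.5 and 25.6 CPM in endothelial-like cells and 89.2 and 27.1 CPM in plasmacytoid dendritic cell-like cells. Before depletion Itgb3 was highest in an unnamed lymphoid cluster of 55 vehicle cells led by Arg1 and Il13, at 136 CPM (90 UMIs). It also reached 10 CPM in every library of fibroblast-like, T cell-like, NK cell-like and B cell-like cells. Itga2b itself reached at most 10.8 CPM, in the Dlk1 Bpifa1 high cluster before depletion.

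Itgav and Itgb8 had their highest level in the same class. Itgb8, which with Itgav activates TGF-beta, was 194 CPM (216 UMIs) in regulatory T cell-like cells of the vehicle and 158 CPM (78 UMIs) of the tamoxifen library before depletion. The next class was Ccr7 dendritic cell-like cells, at 23.2 and 10.3 CPM. Itgav in regulatory T cell-like cells was 2533 CPM (95% Poisson interval 2441 to 2629) and 1966 CPM (1844 to 2094). CD8 T cell-like cells had 323 and 260 CPM, and the remaining T cell-like cells 277 and 267 CPM. The unnamed lymphoid cluster of 55 vehicle cells, led by Arg1 and Il13, had 792 CPM of Itgav, 6.06 CPM of Itgb8 and 136 CPM of Itgb3. The gene Gm13684 lies over Itgav on the opposite strand and was also higher in regulatory T cell-like cells, at 342 and 364 CPM against 28.2 and 56.2 CPM in CD8 T cell-like cells. Whether counting used strand is not given in the sources used here, so reads of both genes cannot be told apart.

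**Figure D2:**
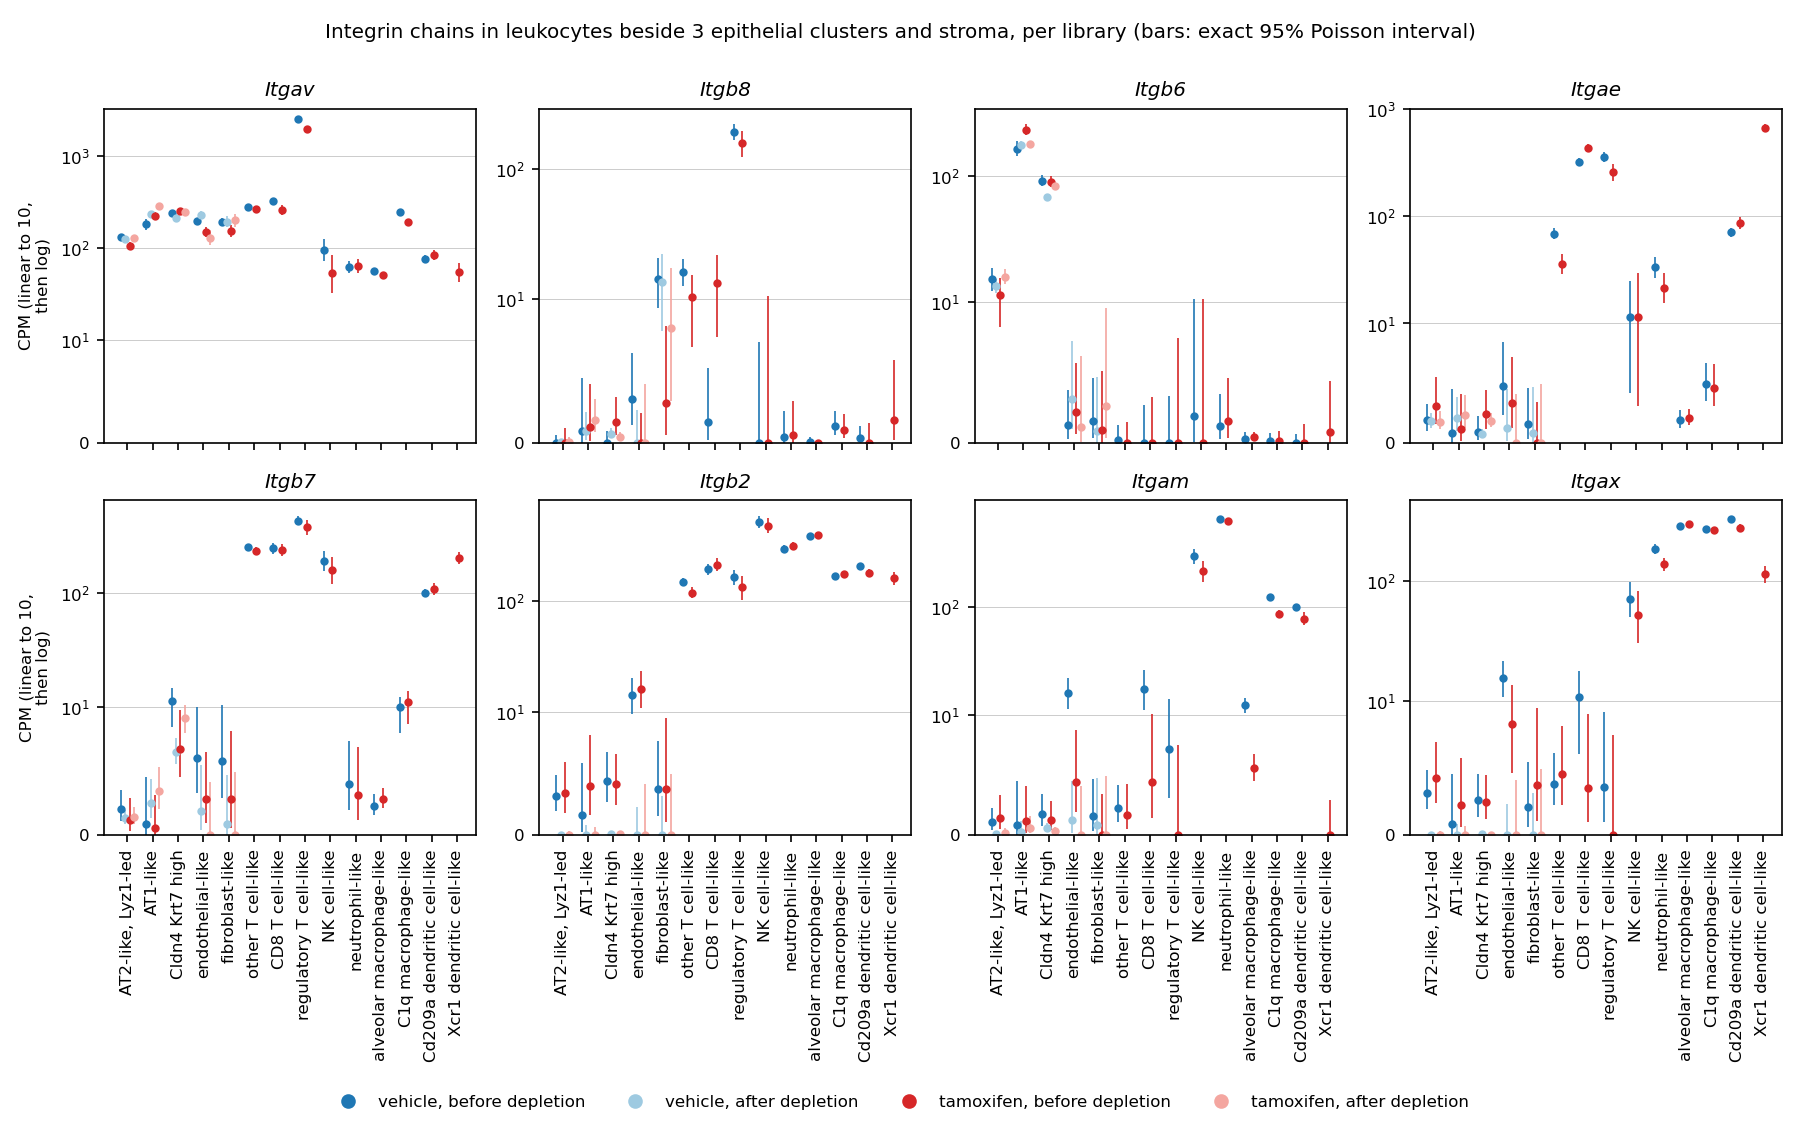
CPM of 8 integrin chains (linear to 10, then logarithmic) in 3 epithelial clusters, stroma and leukocyte classes, 1 point per library with exact 95% Poisson intervals. Itgb8 lies far above the other classes in regulatory T cell-like cells (194 and 158 CPM), Itgb6 in alveolar type 1-like and Cldn4 Krt7 high cells, and Itgam and Itgax peak in different myeloid classes.

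The leukocyte beta chain Itgb2 and its alpha partners were nearly absent from epithelium. Itgb2 in epithelial-like cells was 2.98 and 3.63 CPM before depletion and 0.015 and 0.045 CPM after it, vehicle first. Before depletion, with vehicle first, it was 514 and 476 CPM in NK cell-like cells, 387 and 396 CPM in alveolar macrophage-like cells and 296 and 312 CPM in neutrophil-like cells. Itgal, its partner in LFA-1, the receptor for ICAMs, was highest in an unnamed cluster led by Plac8, Ace and Ly6c2 (540 and 449 CPM) and in NK cell-like cells (514 and 356 CPM). Itgam, its partner in the complement receptor of phagocytes, was highest in neutrophil-like cells at 660 and 631 CPM. Itgax, the chain used to mark dendritic cells and alveolar macrophages, was 327 and 275 CPM in Cd209a dendritic cell-like, 285 and 295 CPM in alveolar macrophage-like and 271 and 261 CPM in C1q macrophage-like cells. The first and the second of these overlapped. Itgam by contrast was 12.3 and 5.55 CPM in alveolar macrophage-like cells.

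Itgam and Itgax are neighbours on chromosome 7 (GRCm38, 128062640 to 128118491 and 128129547 to 128150657, plus strand) yet peaked in different classes, so their promoter windows are shown together with that of Itgb7 (chromosome 15, minus strand), a lymphoid chain. The windows are 300 bases around the RefSeq start on GRCm38.p6, at chr7:128062390-128062689, chr7:128129300-128129599 and chr15:102231886-102232185. Capitals mark the letters GAGGAA on either strand, which hold GGAA, the core bound by ETS factors such as PU.1. GGAA without the letters before it is not marked, and it also occurs in the Itgax window.
Itgam: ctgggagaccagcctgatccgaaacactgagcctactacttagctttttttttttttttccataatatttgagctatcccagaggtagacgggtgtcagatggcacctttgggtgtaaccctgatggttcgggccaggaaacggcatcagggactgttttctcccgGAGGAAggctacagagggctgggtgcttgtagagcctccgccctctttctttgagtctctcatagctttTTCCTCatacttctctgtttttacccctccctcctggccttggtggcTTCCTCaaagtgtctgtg
Itgax: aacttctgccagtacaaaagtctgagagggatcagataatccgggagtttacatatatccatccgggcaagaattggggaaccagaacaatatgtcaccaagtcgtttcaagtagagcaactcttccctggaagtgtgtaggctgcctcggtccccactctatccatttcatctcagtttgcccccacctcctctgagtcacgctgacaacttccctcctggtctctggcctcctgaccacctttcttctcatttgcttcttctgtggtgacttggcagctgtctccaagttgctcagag
Itgb7: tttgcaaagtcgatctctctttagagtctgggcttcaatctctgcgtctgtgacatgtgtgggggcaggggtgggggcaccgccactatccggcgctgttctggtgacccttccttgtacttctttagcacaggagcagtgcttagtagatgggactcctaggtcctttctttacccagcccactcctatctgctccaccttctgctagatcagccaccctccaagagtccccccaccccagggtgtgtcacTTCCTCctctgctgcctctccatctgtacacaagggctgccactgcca
The Itgam window held 3 matches, 1 as printed and 2 on the other strand. The Itgax window held none, and the Itgb7 window held 1 on the other strand. Windows were given for 23 of the 37 chains, of which 14 held the letters, as did 28.3% of the 32851 mouse promoter windows of the same length. A match describes the letters only.

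Itgad, the remaining partner of Itgb2, was highest in plasmacytoid dendritic cell-like cells, at 42.7 and 12.6 CPM before depletion, followed by neutrophil-like cells at 3.58 and 4.74 CPM. Cox6a2 lies within Itgad on the opposite strand and had 956 and 1070 CPM in those cells, so its reads cannot be told apart there without the counting's strand setting.

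Itgae and Itgb7 form the receptor for E-cadherin on epithelium. Itgae was 665 CPM in Xcr1 dendritic cell-like cells of the tamoxifen library, the only library with enough of them. It was 319 and 431 CPM in CD8 T cell-like cells and 353 and 256 CPM in regulatory T cell-like cells, which overlapped, and at most 68.6 CPM in the remaining T cell-like cells. Itgb7 was highest in regulatory T cell-like cells, at 422 and 372 CPM, followed by the remaining T cell-like cells at 248 and 230 CPM. Itga4, which pairs with Itgb1 or Itgb7 and binds VCAM-1 and MAdCAM-1, was 848 and 829 CPM in NK cell-like cells, 876 and 755 CPM in the Plac8-led cluster, 725 and 553 CPM in Ccr7 dendritic cell-like cells and 755 and 512 CPM in regulatory T cell-like cells. NK cell-like cells fell within the range of the Plac8-led cluster, and Ccr7 dendritic cell-like within that of regulatory T cell-like cells, whereas alveolar macrophage-like cells had 68.1 and 70.4 CPM. In epithelial-like cells Itga4 was at most 2.27 CPM.

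Laminin chains were partly shared by epithelium and stroma. Lama5, Lamb2 and Lamc1 were at 10 CPM or more in every library of epithelial-like, endothelial-like and fibroblast-like cells, and Lama3 in every library of epithelial-like and endothelial-like cells. Lamb3 reached that level in every library of epithelial-like cells but of neither stromal class, and Lama4 and Lamb1 in every library of both stromal classes but not of epithelial-like cells. Lama3, the alpha chain of the laminin that anchors epithelium, was 402 and 197 CPM in the Npy-led cluster after depletion, 205, 117, 138 and 131 CPM in alveolar type 1-like cells and 52.1, 55.7, 100.1 and 93.1 CPM in the Cldn4 Krt7 high cluster. The Rbp4 Agr2 Phgr1 high cluster had 3.48 and 6.03 CPM in the vehicle. Endothelial-like cells had Lama3 at 18.1, 23.0, 16.6 and 18.9 CPM.

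Lamb3, a beta chain of epithelial laminin, was spread more evenly, at 333 and 224 CPM in the Npy-led cluster, 284 and 226 CPM in the Plppr1-led cluster with tamoxifen, 218, 188, 237 and 216 CPM in alveolar type 1-like cells and 121, 109, 124 and 113 CPM in the Lyz1-led cluster. Over the 12 epithelial clusters Lama3 and Lamb3 had r = 0.30 and rho = 0.21. Lama5, the broad epithelial alpha chain, was 198, 136, 157 and 141 CPM in the Cldn4 Krt7 high cluster, 150, 111, 137 and 116 CPM in alveolar type 1-like cells and 59.6, 41.9, 48.9 and 51.8 CPM in the Lyz1-led cluster. Lamb2, which joins Lama5 in mature basement membranes, was highest in alveolar type 1-like cells, at 117, 68.6, 104 and 93.5 CPM against 36.4 to 47.2 CPM in the Lyz1-led cluster. Lamc1, the common gamma chain, was 88.2, 79.2, 88.9 and 88.5 CPM in alveolar type 1-like cells and 57.8, 39.5, 54.3 and 43.3 CPM in the Lyz1-led cluster.

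In stroma, Lama4, the endothelial alpha chain, was 305, 215, 207 and 189 CPM in endothelial-like and 185, 117, 139 and 106 CPM in fibroblast-like cells, and at most 0.120 CPM in epithelial-like cells. Lama2, the alpha chain of muscle and mesenchyme, was 219, 134, 182 and 155 CPM in fibroblast-like cells and at most 1.24 CPM in endothelial-like cells. Within the epithelium Lama2 was 29.6 and 34.7 CPM in the Ecrg4-led cluster after depletion and 0 UMIs were counted in the Npy-led cluster, which at a limit of 3 counts allows up to 1.08 and 1.13 CPM. Lama1, known from early embryonic basement membrane, was 50.02, 21.2, 93.6 and 51.2 CPM in endothelial-like cells. Lamb1 was shared by endothelial-like (299, 203, 212 and 176 CPM) and fibroblast-like cells (263, 180, 217 and 210 CPM). In epithelial clusters with 50 or more cells it was highest in the Npy-led cluster, at 123 CPM in both libraries after depletion. Lamc1 in endothelial-like cells was 299.7, 212, 224 and 172 CPM and in fibroblast-like cells 170, 139, 183 and 162 CPM.

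**Figure D3:**
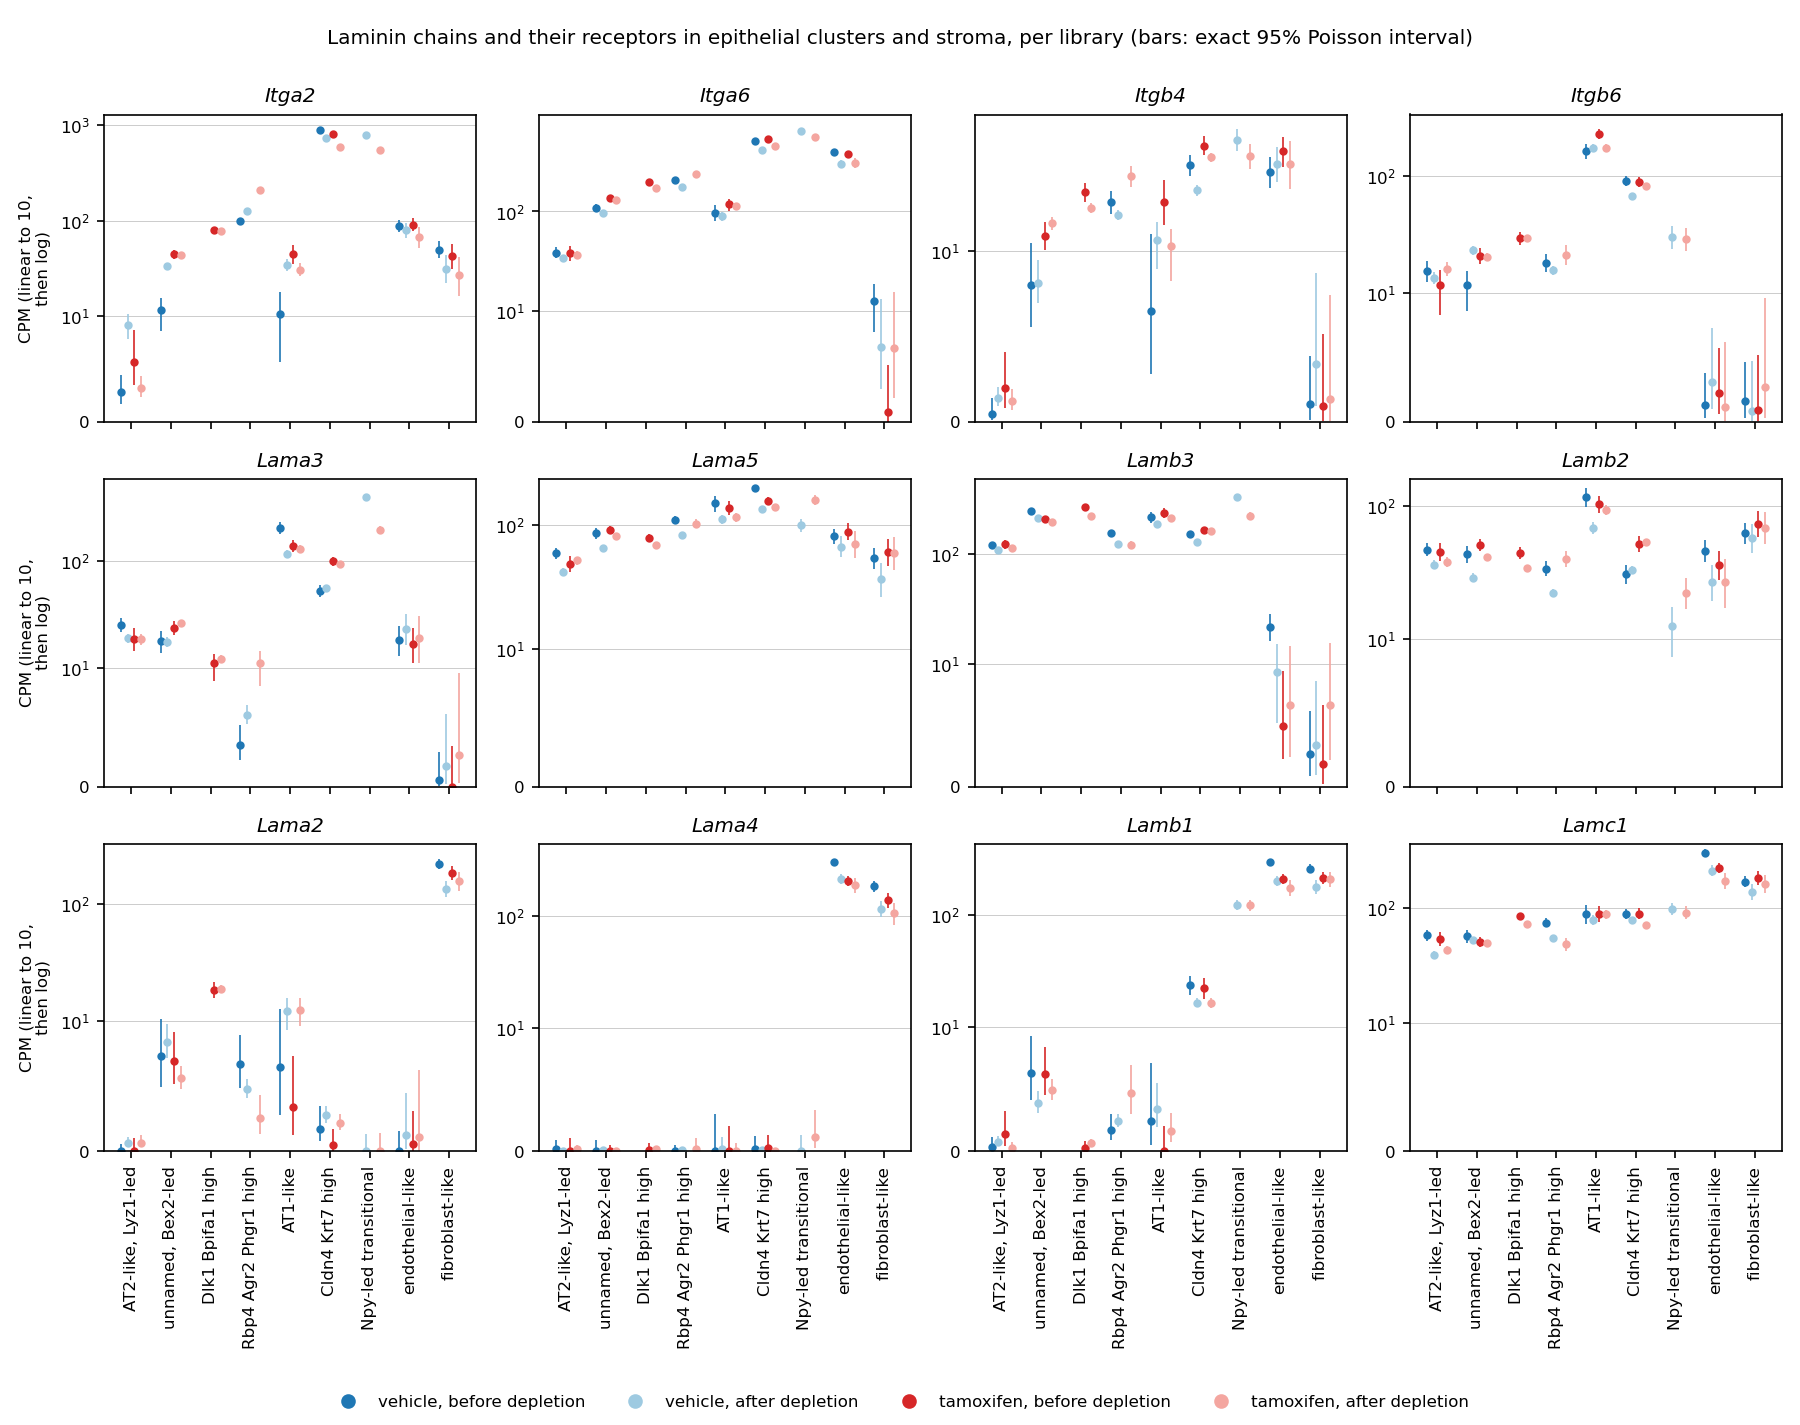
CPM of laminin chains and their receptors (linear to 10, then logarithmic) in 7 epithelial clusters and stroma, 1 point per library with exact 95% Poisson intervals. Itga2, Itga6 and Itgb4 rise from the Lyz1-led cluster to the Cldn4 Krt7 high and Npy-led clusters. Lama2 is highest in fibroblast-like cells, and Lama4 lies in both endothelial-like and fibroblast-like cells. The Ecrg4-led cluster, which also carried Lama2, is not shown.

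Laminin transcripts were also counted in leukocytes, with a limit from overlapping genes. Lamc1 was 411 and 250 CPM in regulatory T cell-like cells before depletion, against 48.4 and 27.6 CPM in the remaining T cell-like cells, and 119 and 68.7 CPM in B cell-like cells. At a fixed depth of 2000 UMIs per cell, 43.3% of 171 and 30.1% of 73 regulatory T cell-like cells had a Lamc1 UMI, compared with 0.501% of 599 and 0 of 421 neutrophil-like cells. Lamb3 was 176 and 235 CPM in NK cell-like, 177 and 200.5 CPM in neutrophil-like and 127 and 147 CPM in B cell-like cells, against 5.71 and 6.87 CPM in alveolar macrophage-like cells. The gene 4930570N18Rik lies over Lamb3 on the same strand, and its part in these counts was not tested. G0s2 and Hsd11b1 lie over Lamb3 on the opposite strand. G0s2 was 4632 and 4780 CPM in neutrophil-like cells, and Hsd11b1 326 and 364 CPM in NK cell-like cells, so part of these Lamb3 counts cannot be told apart from theirs. Fibroblast-like cells had Hsd11b1 at 537 and 626 CPM before depletion with Lamb3 at 2.64 and 1.85 CPM.

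Likely pairs were counted as cells with a UMI of each chain. For this, 2000 UMIs were drawn from each cell, and cells below that depth did not enter. Such thinned shares are low, since few molecules are drawn, and shares without thinning are given beside them. Chains that are each common also meet when drawn independently, so a share alone does not show that they go together. The product of the single shares is printed below only for Itgav with Itgb8 and for the Lama4 trimer. Itgav and Itgb8 met in 29 of 171 regulatory T cell-like cells of the vehicle (16.96%, exact 95% binomial interval 11.7 to 23.4) and in 14 of 73 with tamoxifen (19.2%, 10.9 to 30.1). The remaining T cell-like cells had 9 of 600 and 3 of 331, and B cell-like cells, with Itgb8 at 0.787 and 0 CPM, 0 of 410 in the vehicle, which at a limit of 3 counts allows a share of up to 0.732%. Median depth before thinning was 5641 and 4694 UMIs in regulatory T cell-like and 4898 and 4547 in B cell-like cells. Without thinning the shares in regulatory T cell-like cells were 34.8% and 33.8%. The product of the single shares was 17.3% and 18.9%, each within the interval of the measured share.

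Itgae and Itgb7 met in 18.3% and 19.8% of CD8 T cell-like cells, in 18.7% and 17.8% of regulatory T cell-like cells and in 26.3% of Xcr1 dendritic cell-like cells, and in 0 of 410 B cell-like cells of the vehicle. Unthinned, the shares were 33.3% and 40.2% in CD8 T cell-like, 50.6% and 41.6% in regulatory T cell-like and 93.0% in Xcr1 dendritic cell-like cells, whose median depth was 22223 UMIs. Itgam and Itgb2 met in 28.7% of neutrophil-like cells in both libraries, and Itgax and Itgb2 in 21.4% and 23.9% of alveolar macrophage-like cells. In epithelial-like cells before depletion, which should lack leukocyte chains, Itgam with Itgb2 was found in 0 of 944 vehicle and 0 of 988 tamoxifen cells at the fixed depth, and in 9 of 960 and 1 of 996 without thinning. Unthinned, neutrophil-like cells reached 48.9% and 48.1%, with median depths of 3423 and 3624 UMIs against 26238 and 28696 in epithelial-like cells.

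In the epithelium Itgav and Itgb6 met in 12.5%, 9.28%, 13.6% and 11.4% of alveolar type 1-like cells, 8.06%, 4.89%, 11.8% and 6.61% of the Cldn4 Krt7 high cluster and 1.43%, 0.382%, 1.70% and 0.356% of the Lyz1-led cluster. Unthinned, alveolar type 1-like cells reached 53.4%, 54.1%, 65.2% and 50% and the Lyz1-led cluster 11.1%, 9.31%, 12.9% and 10.1%. No neutrophil-like cell of 599 in the vehicle held both at the fixed depth. Itga2 and Itgb1 met in 31.5%, 28.5%, 37.3% and 29.1% of the Cldn4 Krt7 high cluster, and in 53.5% and 31.5% of NK cell-like cells. Itga6 and Itgb4 met in 4.84%, 2.06%, 6.36% and 3.35% of the Cldn4 Krt7 high cluster, 8.42% and 10.3% of the Npy-led cluster, and 0 of 1571 and 0 of 1125 Lyz1-led cells after depletion.

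Lama4, Lamb1 and Lamc1, a vascular trimer, met in 14.4%, 7.98%, 7.33% and 3.31% of endothelial-like cells, beside products of the single shares of 4.25%, 2.43%, 1.90% and 1.56%. The last share rests on 4 of 121 cells, and its exact 95% interval of 0.908 to 8.25 holds the product. The product is the share that would hold if the chains were drawn independently in each cell of the class.

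Between treatments, no integrin or laminin chain was 2-fold apart in epithelial-like cells as a whole. The rule asked for 10 CPM in 1 or both libraries of a pair and for a ratio, with 1 CPM added to each level, of at least 2-fold in the same direction before and after depletion. Of 17 chains measured in both pairs, 0 were higher and 0 lower with tamoxifen, beside 34 of 9039 genes higher (0.376%) and 84 lower (0.929%). A count of 0 of 17 is near these background shares. The median log2 ratio of the 17 chains was 0.05 before and 0.23 after depletion, against -0.04 and 0.01 for all genes.

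The chains nearest the threshold on the lower side were Itgb5 and Itga2, the only ones of the 17 below 0 in both pairs, and after them Lamb1. Itgb5 was 19.8 CPM in the vehicle and 10.9 CPM with tamoxifen before depletion, and 16.1 and 10.4 CPM after, log2 ratios of -0.81 (95% counting interval of the plain ratio -1.07 to -0.68) and -0.58 (-0.73 to -0.53). Itga2 was 209 and 157 CPM before and 221 and 160 CPM after, log2 ratios of -0.41 and -0.46. Lamb1 was 10.3 and 6.63 CPM before depletion (log2 ratio -0.56) and below 10 CPM in both libraries after it. On the higher side stood Itgb4, Lamb2 and Itga9. Itgb4 was 15.5 and 20.6 CPM before and 14.7 and 19.9 CPM after, log2 ratios of 0.39 and 0.41. Lamb2 was 39.9 and 49.1 CPM before and 29.3 and 42.2 CPM after, log2 ratios of 0.29 and 0.51. Itga9 was 220.0 and 228 CPM before and 157 and 226 CPM after, log2 ratios of 0.05 and 0.52, so nearly all of its difference stood in 1 pair. Itgb6, the epithelial TGF-beta activator, was 38.4 and 44.8 CPM before and 34.9 and 41.3 CPM after (0.22 and 0.24).

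**Figure D4:**
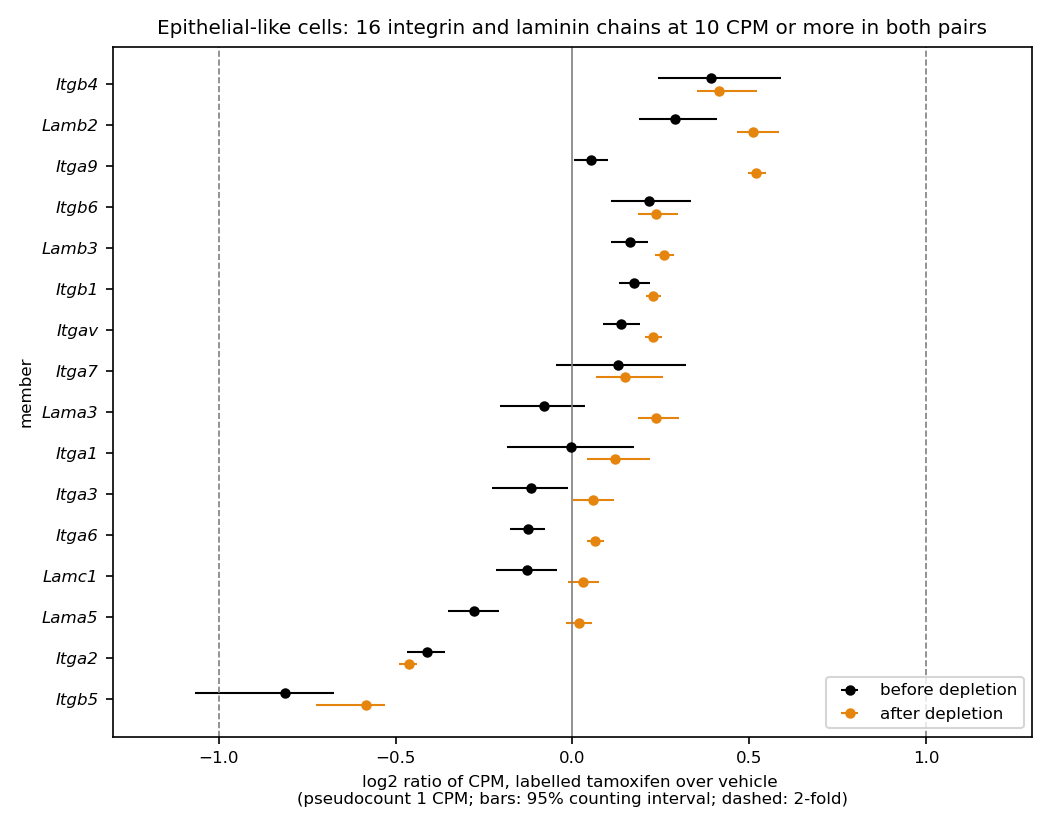
Log2 ratio of CPM (labelled tamoxifen over vehicle, 1 CPM added) in epithelial-like cells for 16 of the 17 chains at 10 CPM or more in both pairs. Black points are the pair before depletion and orange points the pair after it. Bars are 95% counting intervals of the plain ratio, which cover no variation between animals, and every point lies within the dashed 2-fold lines.

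The mix of clusters differed between treatments. The Rbp4 Agr2 Phgr1 high cluster gave 23.4% of epithelial UMIs in the vehicle and 2.13% with tamoxifen before depletion, and the Dlk1 Bpifa1 high cluster 0.338% and 27.5%. Ratios were therefore also taken within clusters. In the Cldn4 Krt7 high cluster, Itga2 had log2 ratios of -0.15 before and -0.33 after depletion, and in the Npy-led cluster -0.54 after it. In the Bex2-led cluster Itga2 was higher with tamoxifen, 11.7 against 44.3 CPM before depletion (log2 ratio 1.84, 48 and 319 UMIs) and 33.7 against 43.6 CPM after (0.36). The ratio of Itga2 over the whole epithelium thus differed in sign from that within the Bex2-led cluster.

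Itgb5 in alveolar type 1-like cells was the only chain 2-fold apart the same way in both pairs of 1 cluster. It was 42.1 CPM in the vehicle and 20.3 CPM with tamoxifen before depletion (52 and 36 UMIs) and 19.4 and 7.17 CPM after (92 and 40 UMIs), log2 ratios of -1.02 and -1.32. The groups overlapped, since the vehicle library after depletion was below the tamoxifen library before it, and portions of 1 suspension also differed more than 2-fold. Of 17 chains measured in these cells before depletion 5 were apart, a larger share than the 6.48% of all genes, and after depletion 1 of 16 was, beside 2.1% of genes. Besides Itgb5, those before depletion were Itga2 (10.5 and 44.4 CPM, 13 and 79 UMIs) and Itgb4 (6.47 and 20.8 CPM) higher, and Itga7 (12.9 and 5.06 CPM) and Itgb3 (16.99 and 6.19 CPM) lower. All 4 rest on 8 to 79 UMIs a library and were not 2-fold apart after depletion, where Itga2 was 34.3 and 30.6 CPM.

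In the Cldn4 Krt7 high cluster 2 of 18 chains were apart before depletion, both lower with tamoxifen, beside 3.58% of genes: Itgb5 (24.2 and 7.73 CPM) and Itga1 (12.4 and 4.11 CPM). After depletion 0 of 17 were apart, beside 2.14% of genes, with Itgb5 at 16.5 and 12.1 CPM. The Npy-led cluster, measured only after depletion, had 3 of 18 chains apart, a larger share than the 6.23% of all genes. Itga5 was 86.3 and 32.8 CPM and Lama3 402 and 197 CPM, both lower with tamoxifen, and Itga9 was 11.2 and 24.5 CPM. In the Lyz1-led cluster 0 of 13 chains were apart in either pair, beside 0.431% and 0.306% of genes.

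The other clusters gave 3 more chains, each in a single pair. In the Bex2-led cluster Itga2 was 1 of 17 chains apart before depletion, beside 3.12% of genes, and after depletion 0 of 17 were, beside 1.15%. In the Ecrg4-led cluster, where the median depth after depletion was 21912 UMIs in the vehicle and 8482 with tamoxifen, Lama3 (8.67 and 18.8 CPM) was 1 of 19 chains, beside 5.34% of genes; the part of depth was not tested. In the Iigp1-led alveolar type 2-like cluster Itga5 (2 and 13 UMIs) was 1 of 17, beside 6.85%. In the Rbp4 Agr2 Phgr1 high and cycling clusters after depletion 0 of 16 and 0 of 17 were apart, beside 3.04% and 2.02% of genes. In these clusters the share of chains was near that of all genes, or the difference rested on 1 chain.

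Outside the epithelium, where treatments were compared before depletion only, 5 chain and class combinations were 2-fold apart, all lower with tamoxifen. In B cell-like cells Itgam was 27.9 and 4.29 CPM (71 and 5 UMIs), 1 of 14 chains, beside 5.61% of genes. The summed level of the 7 neutrophil markers in the same cells was 1755 CPM in the vehicle and 244 CPM with tamoxifen, all 7 with a UMI in both libraries, and its part in the Itgam difference was not tested. In alveolar macrophage-like cells Itgam was 12.3 and 5.55 CPM, 1 of 12 chains and so above the 0.469% of all genes by a single chain, while the neutrophil markers there summed to 133 and 137 CPM.

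In endothelial-like cells Lamb3 (22.0 and 4.99 CPM, 51 and 9 UMIs) and Itgam (16.0 and 4.43 CPM, 37 and 8 UMIs) were 2 of 25 chains, beside 4.17% of genes. The 8 alveolar type 2 markers summed to 2075 CPM in the vehicle and 5167 CPM with tamoxifen in those cells, and their part in the Lamb3 difference was not tested. The 7 neutrophil markers summed to 621 and 571 CPM, the 6 C1q macrophage markers to 242 and 101 CPM and the 5 classical monocyte markers to 116 and 61.5 CPM, and Ptprc, the pan-leukocyte gene that encodes CD45, was 74.6 and 28.3 CPM. The part of other leukocyte RNA in the Itgam difference was not tested. In neutrophil-like cells Itga6 (14.3 and 5.79 CPM, 36 and 11 UMIs) was 1 of 12 chains, beside 3.93% of genes. The 5 classical monocyte markers in those cells summed to 186 and 95.8 CPM, and their part was not tested. T cell-like cells had 0 of 14 chains apart and monocytes, macrophages and dendritic cells together 0 of 15, beside 0.744% and 0.523% of genes.

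Partner genes were followed in epithelial-like cells by 3 lists, beside all 9039 genes, of which 0.376% were higher and 0.929% lower in both pairs. Of the adhesion machinery that links integrins to actin, 0 of 21 measured genes were higher and 0 lower in both pairs, with median log2 ratios of -0.16 and -0.08. Its highest genes included the tetraspanins Cd9 (1061 and 1125 CPM before depletion) and Cd81 (270.0 and 252 CPM) and the actin-linking proteins Actn4 (288 and 224 CPM) and Vcl (240.0 and 178 CPM), vehicle first. Beside those shares of all genes, 0 of 9 integrin ligands were lower and 1 was higher, so the list differed by a single gene. It was Jam2, a junctional adhesion molecule bound by Itga4 with Itgb1, at 5.18 and 21.9 CPM before depletion and 5.88 and 21.6 CPM after (log2 ratios 1.89 and 1.72). The matrix ligand Spp1, osteopontin, was 340 and 87.9 CPM before depletion but 357 and 264 CPM after, so it passed in 1 pair only.

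The other ligands named by level were Cdh1, the E-cadherin bound by Itgae with Itgb7 (368 and 364 CPM before depletion), Fn1, fibronectin (375 and 261 CPM before and 262 and 291 CPM after), and Thbs1, a matrix glycoprotein (218 and 325 CPM before and 195 and 338 CPM after). Beside 0.376% of all genes higher and 0.929% lower, 0 of 15 basement membrane partners and other laminin receptors were higher and 1, a single gene, was lower. It was Nid1, which bridges laminin to collagen IV, at 13.3 and 4.54 CPM before depletion and 12.9 and 4.52 CPM after (log2 ratios -1.37 and -1.33). The syndecans Sdc4 (663 and 695 CPM) and Sdc1 (416 and 399 CPM), the collagen IV chain Col4a1 (228 and 272 CPM) and Bcam, a receptor for Lama5 (220.0 and 183 CPM), were less than 2-fold apart before depletion.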

How the data were processed

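The authors deposited UMI counts per gene and cell barcode for 4 libraries of the 10x Genomics 3′ kit version 3, per the labels' protocols. Cell Ranger was version 7.0.1 per the file headers and 7.2.0 with build mm10 per the submitters' processing notes. Use of intronic reads and of strand is not given in the sources used here. Coordinates are from GENCODE M21 (GRCm38), which matched 32158 of 32289 features. A further allele in the labels and the values of 1 chain are not reported here.

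Barcodes entered with 200 or more genes and no more than 20% of UMIs from mitochondrial genes. The automatic doublet threshold called 188, 1, 1 and 0 cells and had not worked, so a fixed Scrublet score of 0.25 removed 225, 120, 116 and 153. Clusters led by genes of another lineage were set aside (249, 131, 252 and 42 cells). Clustering used scanpy 1.11.5 and igraph 0.11.9 on 2000 variable genes without the chains or batch correction, and names needed 3 detected markers.

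UMIs were summed per class and library and divided by all UMIs of those cells; classes of at least 50 cells (100 outside the epithelium for treatments) entered. With 1 library per group a rule of size replaced tests: at least 2-fold on the log2(CPM + 1) scale with 10 CPM in either library. Intervals are exact Poisson or Clopper-Pearson (95%), for counting error only. Described singly are chains at 10 CPM in a named class before depletion, chains past the rule and the 3 nearest on either side, and from each list those past the rule and at most 4 others of highest level. The rule of size was tested on simulated data. Alternatives were other scalings (edgeR 4.0.16 TMM, median of ratios), pseudocounts, minimums, folds and cell filters. The chains and lists were chosen with earlier results of these data known.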

Additional observations from a re-analysis of the deposited data

How the results depend on the processing

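The absence of any chain 2-fold apart in epithelial-like cells held in each of 12 alternatives run: TMM factors, median of ratios, a pseudocount of 0.1 CPM, no CPM minimum, a 1.5-fold rule, means over cells, at least 1000 genes, at most 10% mitochondrial UMIs, doublets kept, a gate on each cell, leaving out the Lyz1-led cluster, and keeping the set-aside cluster, the last chosen after seeing the data. With the 1.5-fold rule the count of 0 held by a narrow margin, since Itgb5 was 1.758-fold lower before depletion and 1.498-fold lower after it. Without the Lyz1-led cluster Itgb5 was past the 2-fold line before depletion (-1.01) but not after it (-0.68), so the rule over both pairs kept the count at 0. The Itgb5 log2 ratios nearest 0 were -0.50 before depletion, as a mean over cells, and -0.49 after it, with a gate on each cell. Signs of small ratios were not stable: they changed in 1 or more alternatives for, among others, Itga1 (5 of 12), Itga7 (2) and Itga9 (1) before depletion and Itga3 (2), Lama5 (2) and Lamc1 (1) after it. Outside the epithelium the count of 5 became 17 without a CPM minimum and 16 with a 1.5-fold rule, and within clusters the count of 14 became 32 and 36. Pair shares depend on depth: Itgav with Itgb6 in epithelial-like cells after depletion was 2.19% (vehicle) and 3.32% (tamoxifen) at 2000 UMIs, 8.72% and 9.60% at 5000, and 29.0% and 31.1% unthinned; Itga6 with Itgb4 was 0.851% and 1.21%, 3.64% and 4.80%, and 19.4% and 21.5%. Chain counts per class stayed within 1.5 times under 4 alternatives (a 5 CPM minimum, at least 1000 genes, clustering resolution 2 and doublets kept). No paired analysis was possible because each group holds 1 library. Differences between animals cannot be told apart from those between treatments.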

Other observations

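Mural-like cells, a cluster led by Higd1b and Rgs5, numbered 76 over the 4 libraries, too few in any library for a comparison. A cluster of 31 cells led by smooth muscle genes such as Myh11 was left unnamed and is not among them. Pooled, they had Itga1 at 1185 CPM, Itgb1 at 1231 CPM, Lamb1 at 346 CPM, Lama4 and Lama2 at 332 CPM each, Itgav at 299 CPM, Itgb5 at 265 CPM and Lamc1 at 212 CPM. Their pooled Itga1 lay above every library of fibroblast-like cells (236 to 360 CPM). The cells came from 10, 25, 15 and 26 per library, so the pooled values weigh the libraries unequally.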
